A study of Caenorhabditis elegans with 4 samples.

Results

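The 9 genes described here code for subunits of the NuRD and MEC chromatin complexes of Caenorhabditis elegans, other than egl-27, whose product was the protein studied. They were taken by name out of 19973 nuclear protein-coding genes. Binding of EGL-27 was measured by chromatin immunoprecipitation and sequencing (ChIP-seq) in whole third-stage (L3) larvae. All 4 samples belong to 1 group and are biological replicates 1 to 4 in the labels. The worms were of strain OP177, genotype unc-119(ed3) III; wgIs177, were pooled from males and females, and stably carry EGL-27 with GFP-FLAG at its C terminus. Neither the promoter of the transgene nor an age beyond the larval stage is stated in the labels, which name egl-27 as the target of the antibody. Whole worms mix many cell types. With no second group and no ChIP of another protein, the member genes can only be set beside other genes, and no test between conditions exists. A summit is the base of a peak with the strongest signal, and a gene's window is its body plus 2 kb upstream of its annotated 5′ end. Rank 1 is the strongest peak of a list by the authors' signal value.

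NuRD couples an ATPase that slides nucleosomes to a histone deacetylase, and is known mainly for repressing transcription. In the worm, LET-418 and CHD-3 are Mi-2 type ATPases, HDA-1 is the class I deacetylase, and LIN-53 and RBA-1 are histone-binding WD40 proteins of the RbAp46/48 family. LIN-40 is an MTA-family scaffold like EGL-27, DCP-66 is the p66 subunit, and MBD-2 belongs to the methyl-CpG-binding-domain family. The MEC complex joins LET-418 and HDA-1 to the zinc finger protein MEP-1, and keeps germline genes silent in somatic cells.

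The stretches below show what the peaks at 4 of the genes look like as DNA, and were read from the RefSeq genome of the files' build, ce11 (WBcel235). Each spans 50 bp on either side of a pooled summit, 5′ to 3′ on the strand of the named gene. Capitals mark every match on either strand to the words searched: GAGAGAG; the GATA-type word TGATAA, also with A as its first letter, G as its last, or both; CACGTG; and TTCGCG. The first is the IDR peak nearest to let-418 (chrV:5823121-5823221, plus strand), which lies outside the gene's 2 kb window. The others are the strongest peaks within the windows of mep-1 (chrIV:11522601-11522701, plus strand), hda-1 (chrV:14524347-14524447, plus strand) and chd-3 (chrX:12852453-12852553, minus strand).
let-418, far upstream: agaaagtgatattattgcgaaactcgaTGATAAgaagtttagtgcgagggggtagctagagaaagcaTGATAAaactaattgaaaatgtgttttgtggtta
mep-1: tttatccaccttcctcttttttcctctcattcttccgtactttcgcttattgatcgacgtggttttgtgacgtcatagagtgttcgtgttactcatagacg
hda-1: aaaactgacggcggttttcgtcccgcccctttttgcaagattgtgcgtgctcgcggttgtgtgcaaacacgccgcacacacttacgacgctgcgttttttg
chd-3: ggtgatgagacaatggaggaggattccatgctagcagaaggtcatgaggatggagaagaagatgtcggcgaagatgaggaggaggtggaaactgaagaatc

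The let-418 stretch holds TGATAA at 2 places, starting 23 bp before and 17 bp after the summit. EGL-27 itself carries a GATA-type zinc finger. At least 1 GATA-type word lay within 50 bp of 21.5% of the 28043 nuclear pooled summits and 20.2% of the 802 nuclear IDR summits, and 2 or more lay at 4.12% and 5.24%. The mep-1, hda-1 and chd-3 stretches hold none of the words searched. CACGTG lay at 2.51% of pooled and 6.11% of IDR summits and TTCGCG at 2.78% and 5.11%, and neither lay within 50 bp of any of the 15 distinct pooled summits in member windows. GATA-type words lay at 2 of the 15, at let-418 and dcp-66. A match describes the letters and is not evidence of a binding site. The hda-1 stretch is 54.5% G and C, a level that 4.37% of pooled summits reach. The mep-1 stretch is 68.3% pyrimidine and the chd-3 stretch 74.3% purine on the gene's strand, against a median of 55.4% for the commoner of the 2 letter types over pooled summits.

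The data are lists of peaks. The pooled list, called on the 4 alignments together, held 28056 peaks, and the replicate lists 30000, 6602, 19304 and 12990. These lists contain background as well as peaks. The final list of 814 peaks was made by the authors with the irreproducible discovery rate (IDR), and here equals the 814 strongest pooled peaks. A replicate's 814 strongest peaks are called its top peaks below, so that lists of unequal length are compared at an equal number. Read depth is unknown, and the replicates share a control.

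Within the windows of these genes the IDR list held 1 site. That IDR summit lay in the windows of 2 members at once, the neighbours lin-53 and rba-1. All 9 genes had some pooled summit in the window, against 67.0% of all protein-coding genes. That count reads as no more than the background, because the windows held 0.289 distinct pooled summits per kb and all protein-coding windows together 0.287. Members also had long windows, with a median of 5313 bp against 4027 bp. When all genes were split into 4 nearly equal groups by window length, 88.1% of those with the longest windows had a pooled summit and 52.3% of those with the shortest. The first group holds lin-40, let-418, chd-3 and dcp-66, and the last holds mbd-2.

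For the IDR list the share was 2 of 9 genes against 4.46% of all genes, but the 2 genes share the summit. Window lengths bear on this background too, which runs from 2.97% to 6.99% over the 4 groups of window length. By the strongest pooled summit in the window, the order was lin-53 and rba-1 (rank 268), dcp-66 (1002), chd-3 (3864), mep-1 (4238), hda-1 (5562), mbd-2 (11830), lin-40 (15102) and let-418 (15796). The median over members was rank 4238, and over all genes with a pooled summit it was 9235. These medians were not matched for window length, and the members had longer windows. The member median also counts rank 268 for both lin-53 and rba-1, which share that summit. Neighbours in this order cannot be separated by a spread, since the pooled list is a single call on all replicates.

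**Figure D1:**
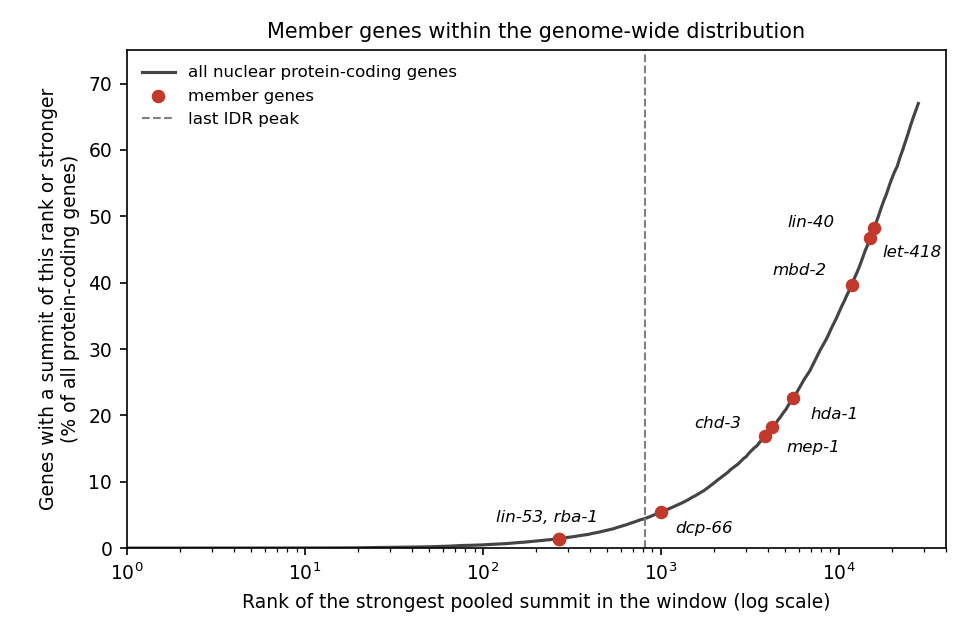
The curve gives the percentage of all nuclear protein-coding genes whose strongest pooled summit has a given rank or a stronger one (log axis), and red points mark the 9 member genes. The shared site of lin-53 and rba-1 lies left of the dashed line at the last IDR peak, dcp-66 just right of it, and the other 6 genes between ranks 3864 and 15796.

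The histone-binding subunit lin-53 (WBGene00003036; chromosome I, 9618196 to 9619760, minus strand) had the strongest site. Its peak (9619831 to 9620200) had its summit 256 bp upstream of the 5′ end of lin-53. The site was found in all 4 replicates, at rank 339 of 30000 in replicate 1, 139 of 6602 in replicate 2, 421 of 19304 in replicate 3 and 2024 of 12990 in replicate 4. It was thus a top peak in 3 replicates and fell outside the first 814 in replicate 4. The 4 replicate summits lay between 224 and 268 bp upstream, within 44 bp of each other. Only 1.43% of protein-coding genes had a pooled summit of this rank or a stronger one.

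This peak cannot be assigned to lin-53. It sits in the 466 bp between lin-53 and nra-2, a divergently transcribed gene of the nicalin family, and was nearer to the 5′ end of nra-2, at 211 bp. The paralog rba-1 (WBGene00004312; I, 9616516 to 9618107, minus strand) lies 88 bp downstream of lin-53 on the same strand, and the summit entered its window only at 1909 bp upstream, across the body of lin-53. The 88 bp between the genes held no pooled summit. Close to the 5′ end of rba-1 the whole replicate lists had weak peaks inside lin-53: replicate 1 at 221 bp (rank 15332) and 491 bp (rank 15322), and replicate 2 at 246 bp (rank 4739). The peaks at 221 and 246 bp lay 25 bp apart in the 3′ UTR of lin-53, and the nearest pooled summit was 1663 bp away. The proteins of lin-53 and rba-1 are 55.3% identical over 407 aligned residues, but the genes share no identical stretch longer than 11 bp. None of the words searched lay within 50 bp of the lin-53 summit, where 52.5% of letters were G or C.

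The p66 subunit gene dcp-66 (WBGene00000938; I, 7536104 to 7542159, minus strand) came next and had 3 pooled summits, all upstream. The stronger ones lay 1457 bp (rank 1002; peak 7543431 to 7543800) and 162 bp (rank 1735; peak 7542136 to 7542505) from the 5′ end. Both carried the highest −log10 q-value of the pooled list, 2.22, a value that all IDR peaks also carried. By rank, both fell short of the 814 peaks of the IDR list. No other protein-coding gene had either summit in its window, because the next gene upstream begins 11684 bp away.

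Replicates differed at dcp-66. The site at 1457 bp was found in replicate 1 (rank 1017 of 30000) and as a top peak in replicate 4 (rank 545 of 12990), and within 200 bp of it replicates 2 and 3 had no peak. The site at 162 bp was found in replicate 1 alone (rank 1415). The weakest summit, 416 bp upstream (rank 13153), was matched in replicate 3 (rank 5811). GAGAGAG lay within 50 bp of both stronger summits, at 3 places by the far summit, where 2 matches overlap, and at 1 place by the near one, which also had GATA-type words at 2 places. None of the other 13 distinct member summits had GAGAGAG within 50 bp. The same word lay at 3.90% of all pooled and 13.8% of IDR summits.

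**Figure D2:**
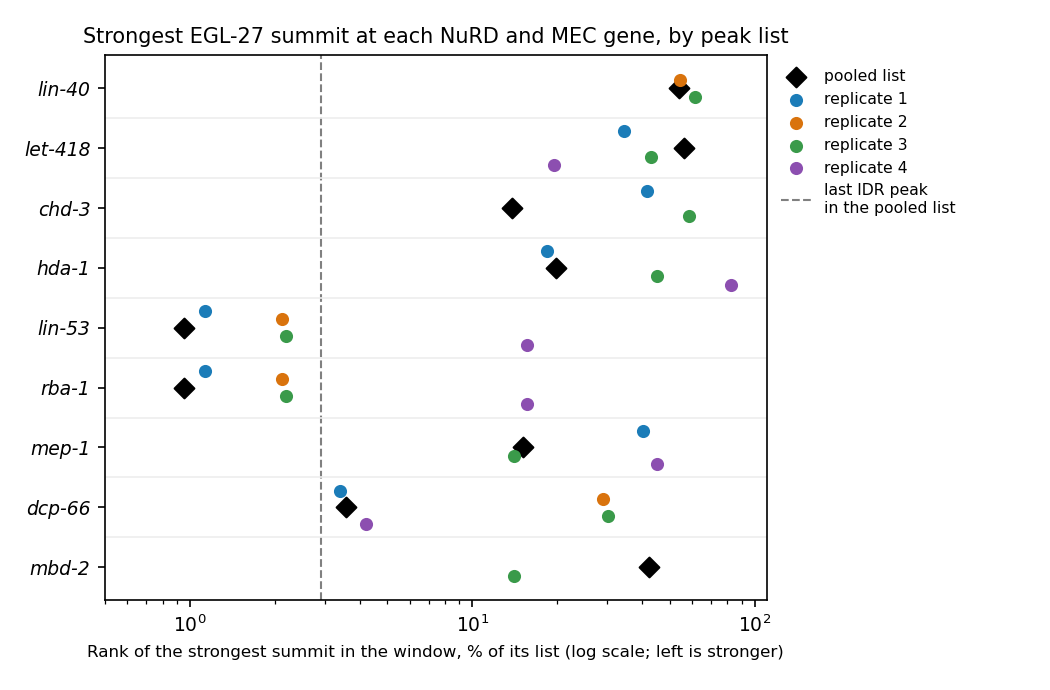
Each point is the strongest summit in a gene's window in 1 list, placed by its rank as a percentage of that list (log axis, left is stronger), with black diamonds for the pooled list and coloured circles for replicates 1 to 4. For lin-53 and rba-1, 3 replicates and the pooled list lie at 2.18% or further left and replicate 4 at 15.6%, while a list without a point had no summit in that window.

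The Mi-2 ATPase genes let-418 and chd-3 had no IDR summit in their windows. In the window of let-418 (WBGene00002637; V, 5826833 to 5832831, plus strand) the single pooled summit was weak (rank 15796, −log10 q-value 0.221). It lay in a coding exon 3271 bp from the 5′ end and was matched in replicates 1 (rank 21211) and 3 (rank 11620). Near the 5′ end only replicate lists had peaks, at 363 bp upstream in replicate 1 (rank 13100), 549 bp in replicate 4 (rank 2529) and 860 bp in replicate 3 (rank 8274). The first and second were 186 bp apart, and no pooled summit matched them.

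A strong site lay beyond the window, however, a feature singled out after its values were seen. The IDR peak at V, 5822986 to 5823355, had its summit 3662 bp upstream of let-418 (rank 315), in the 13695 bp that part the gene from its divergent neighbour ZC250.4. The 5′ end of let-418 was the nearest of any protein-coding gene. All 4 replicates had the site, at ranks 244, 2292, 338 and 1776, and it was a top peak in replicates 1 and 3. Of the 6 pooled summits in that gap it was the only IDR peak and the only summit found in all 4 replicates. It is the site whose stretch with TGATAA at 2 places is printed above. Among the other members, the nearest IDR summit outside the window lay 8.25 kb from the 5′ end for chd-3, inside the gene C52G5.2, and 19.5 to 443 kb away for hda-1, mep-1, dcp-66, mbd-2 and lin-40.

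**Figure D3:**
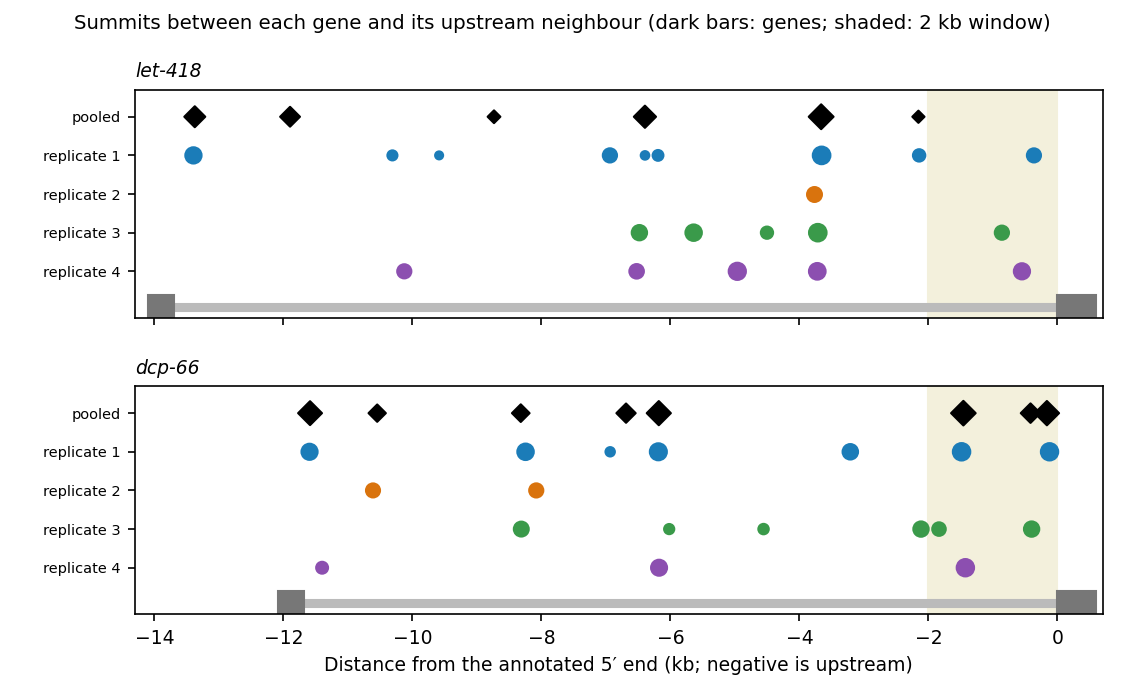
Summits of the pooled list and of replicates 1 to 4 are placed by distance (kb) from the 5′ end of let-418 and of dcp-66, across the DNA up to the next protein-coding gene, with larger points for higher ranks. At let-418 the pooled summit of rank 315 has a peak beneath it in all 4 replicates at 3.66 kb, beyond the shaded 2 kb window, and at dcp-66 the summit at 1457 bp has a peak beneath it in replicates 1 and 4.

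The paralog chd-3 (WBGene00000482; X, 12846439 to 12852601, minus strand) had 3 pooled summits, all in coding exons, at 98 bp (rank 3864), 2848 bp (rank 8037) and 5177 bp (rank 23770) from the 5′ end. The strongest was matched in none of the 4 replicates, although its −log10 q-value was 1.68. The second was matched in replicate 1 (rank 15106), and the weakest in replicates 1 (rank 12432) and 3 (rank 11254). The weakest also lay in the window of C52G5.3, whose 5′ end was nearer, at 1281 bp. Replicates 2 and 4 had no summit anywhere in the chd-3 window. LET-418 and CHD-3 are 71.6% identical over 1758 aligned residues, and their genes share an identical stretch of 32 bp at most, against 15 bp between the unrelated genes lin-40 and let-418. How reads from such stretches were placed is not stated in the files.

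The deacetylase gene hda-1 (WBGene00001834; V, 14525389 to 14527411, plus strand) had 1 pooled summit, 992 bp upstream (rank 5562; peak 14524212 to 14524581). The −log10 q-value of this pooled summit was 1.08. Replicate 1 placed its summit on the same base (rank 5514), and the other replicates had none within 200 bp. The site lay between hda-1 and the divergent gene ril-1, nearer to ril-1 at 268 bp, within 200 bp of the ncRNA gene C53A5.18, and in the windows of C53A5.2 and C53A5.16 as well. Replicate 4 had a weak peak 184 bp upstream (rank 10736), and replicates 1 and 3 had weak peaks in the gene body. No 2 replicates had hda-1 summits within 200 bp of each other.

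For the MEC zinc finger gene mep-1 (WBGene00003218; IV, 11524642 to 11527954, plus strand), the stronger of 2 pooled summits lay 1991 bp upstream (rank 4238; peak 11522466 to 11522835). Its −log10 q-value was 1.53. Replicates 1, 3 and 4 matched this summit, at ranks 12029, 2275 and 5855, and replicate 2 did not. The summit of replicate 3 lay just beyond the 2 kb window. With matches up to 200 bp, the mep-1 site was the only member site besides that of lin-53 found in 3 or more replicates. With matches up to 100 bp it was found in 2. The summit fell just inside the window, in the 2427 bp that part mep-1 from gfl-1, a YEATS-domain gene on the same strand. The 5′ end of gfl-1 was nearer, at 1361 bp, but the summit lay beyond the 3′ end of gfl-1 and outside its window. The summit was also 1620 bp from the 5′ end of M04B2.4, in whose window it lies, but across the body of gfl-1. The weaker summit, 152 bp upstream (rank 6863, −log10 q-value 0.849), was matched in replicate 4 (rank 7579). It had the ncRNA genes M04B2.11 and M04B2.13 within 200 bp.

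The scaffold gene lin-40 and the gene mbd-2 were among the weakest. The window of lin-40 (WBGene00003025; V, 3704988 to 3712796, plus strand) held 1 pooled summit, 916 bp upstream (rank 15102, −log10 q-value 0.240). Replicate 2 matched it (rank 3599 of 6602), replicates 1 and 4 had no summit in the window, and replicate 3 had 2 in the gene body (ranks 11878 and 16417). The nearest IDR summit was 443 kb away. The gene has 3 annotated transcript 5′ ends, and the pooled summit lay upstream of all of them.

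The gene mbd-2 (WBGene00023409; I, 6064088 to 6065298, plus strand) lies wholly inside pigo-1 on the opposite strand, which codes for a GPI-anchor synthesis enzyme. All 3 pooled summits in the mbd-2 window, including those upstream of mbd-2, lay in the body of pigo-1 too. They had ranks 11830 (−log10 q-value 0.373) at 276 bp upstream, 18529 (0.147) at 573 bp into the gene and 23909 (0.058) at 1424 bp upstream. The last also lay in the window of the divergent neighbour ari-1.1, 1711 bp from its 5′ end. Replicate 3 matched the first (rank 11485) and the second (rank 2701), and the other 3 replicates had no summit in the window. At least 3 pooled summits were held by 3 of 9 members (chd-3, dcp-66 and mbd-2) and by 19.3% of all genes. These counts were not matched for window length. The windows of chd-3 and dcp-66 belong to the group of longest windows, and that of mbd-2 to the shortest.

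**Figure D4:**
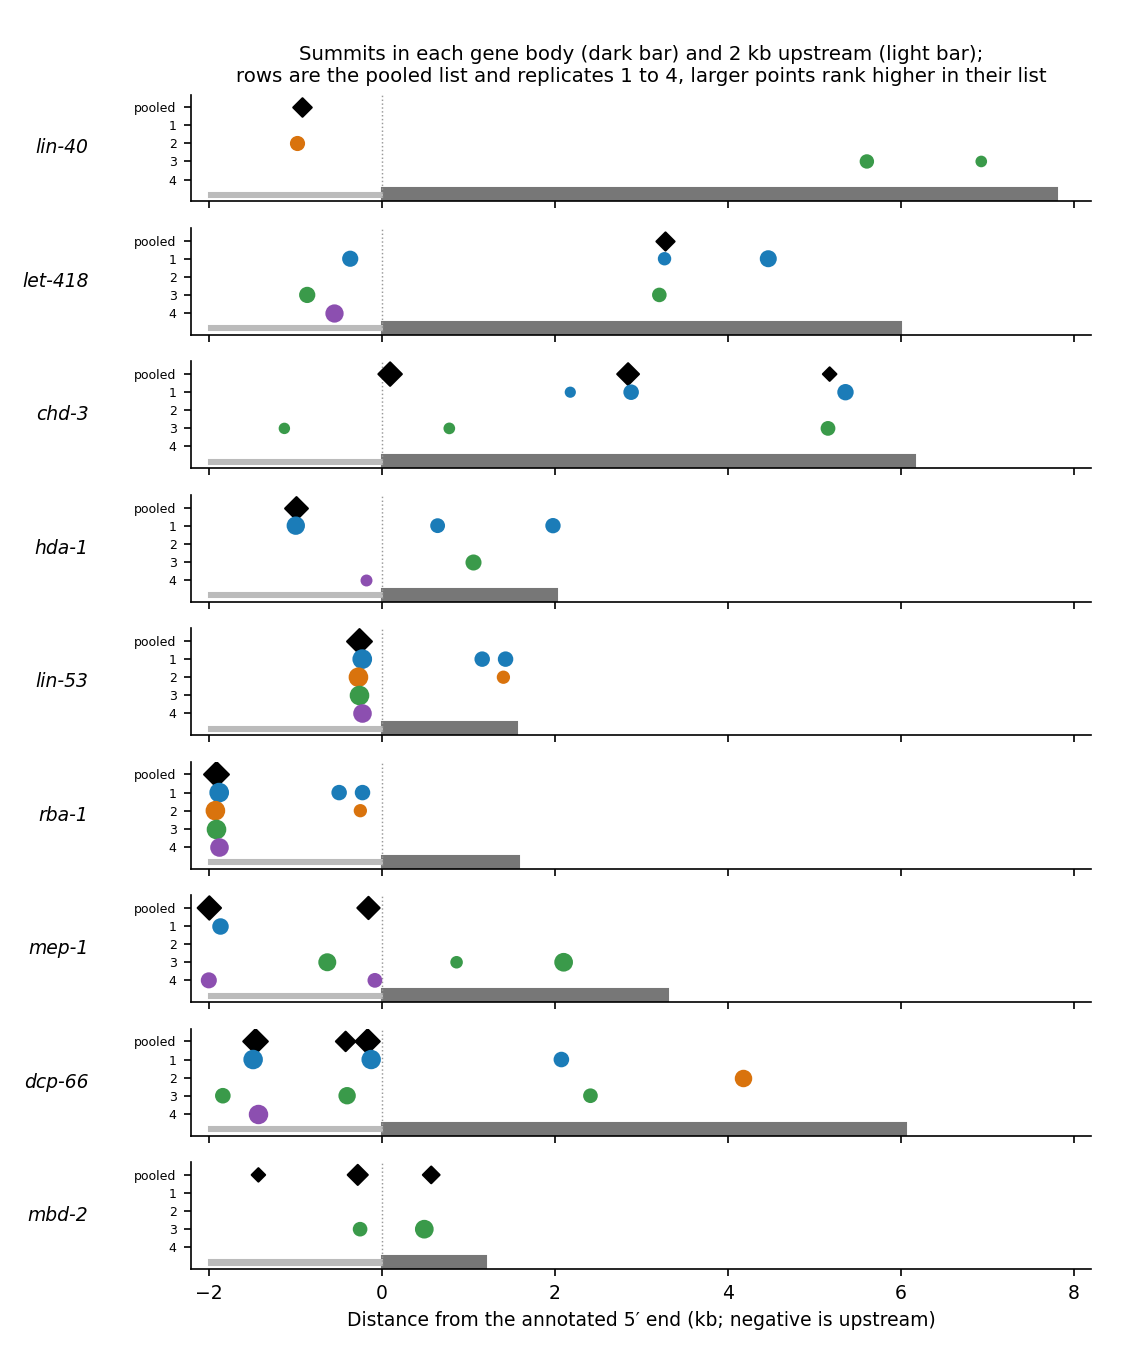
Summits are placed by distance (kb) from each gene's 5′ end, with the gene body as a dark bar and the 2 kb upstream as a light bar, 1 row for the pooled list and 1 for each replicate, and larger points for higher ranks. The rows line up at the lin-53 site, drawn again in the window of rba-1, and line up in few other places.

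Over all members the replicates shared few sites. Of the 15 distinct pooled summits in member windows, 1 was matched in 4 replicates, 1 in 3, 3 in 2, 8 in 1 and 2 in none. Among all nuclear pooled summits 1.90% were matched in 4 replicates and 18.2% in none. Because the pooled list contains each replicate, a match is partly built in. A summit found in all 4 replicates lay in the windows of 2 of 9 genes, again the shared site of lin-53 and rba-1, against 2.82% of all genes. Of the 15 summits, 8 had a match in replicate 1, 2 in replicate 2, 7 in replicate 3 and 4 in replicate 4. For all nuclear pooled summits these shares were 56.2%, 11.5%, 33.2% and 23.2%.

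Counted by gene, any summit lay in the window of 7 members in replicate 1, 4 in replicate 2, all 9 in replicate 3 and 6 in replicate 4. Over all protein-coding genes the shares were 70.5%, 26.7%, 56.3% and 43.4%. These shares were not matched for window length, and the members had longer windows. In every replicate the summits in the window of lin-53 were the same as those in the window of rba-1, so they count for both genes. In terms of top peaks, lin-53 and rba-1 were hit in replicates 1, 2 and 3, and dcp-66 in replicate 4. The mean was 1.75 ± 0.5 member genes per replicate (SD, n = 4). Over all genes 4.16%, 3.84%, 3.98% and 4.14% had a top peak in replicates 1 to 4. The 1.75 counts the shared site for both genes, and without rba-1 it is 1 gene in each replicate.

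Genes tied to these complexes were examined as well, from lists chosen with earlier results of these data known. Their counts are to be read against the 67.0% of all protein-coding genes with a pooled summit and the 4.46% with an IDR summit. The MTA paralog egl-27 stood apart, with 26 pooled and 5 IDR summits in its window, the strongest at rank 5 in an intron 7787 bp from the 5′ end and a top peak in all 4 replicates. Its density was 1.74 summits per kb, against 0.102 for lin-40. The strain carries egl-27 on a transgene, and peaks at the transgene and at the native locus cannot be told apart. The proteins LIN-40 and EGL-27 are 24.1% identical over 848 aligned residues, and their genes share no identical stretch over 17 bp. Of the SUMO pathway and MEC partner genes, pie-1, ubc-9, smo-1 and gei-17, all had a pooled summit and none an IDR summit. The strongest was at ubc-9 (rank 1207, 200 bp upstream, matched in 3 replicates). That summit also lay in the window of F29B9.5, 1571 bp from its 5′ end.

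Among 11 other deacetylase genes 9 had a pooled summit and 0 an IDR summit, beside 67.0% and 4.46% of all genes. The class I paralogs hda-2 and hda-3 had their strongest summits at ranks 11976 and 5924, beside 5562 for hda-1. Of 8 other SNF2-type ATPase genes all had a pooled summit and 1 an IDR summit, beside the same 67.0% and 4.46%. Some of their windows are long, with 32156 bp for ssl-1, 17542 bp for btf-1 and 14711 bp for chd-7, and 88.1% of genes with the longest windows had a pooled summit. The IDR summit was at chd-7, a CHD-family remodeller, 973 bp upstream (rank 587), and was found in 4 replicates at ranks 248, 4977, 522 and 3976.

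A last list held 13 genes of other complexes with RbAp, HDAC1 or LSD1 proteins. All 13 had a pooled summit and 1 an IDR summit, beside 67.0% and 4.46% of all genes. The latter was hat-1, a histone acetyltransferase gene, with a summit 207 bp upstream (rank 257). The summit also lay in the window of M03C11.3, 2385 bp from the 5′ end of that gene. It was matched at ranks 220, 631, 623 and 2398 in replicates 1 to 4. As at lin-53, it was a top peak in replicates 1, 2 and 3 and not in replicate 4. Median strongest ranks were 7021 for egl-27 and the MEC partners, 7602 for the deacetylases, 5885 for the ATPases and 6562 for the last list. For the members the median was 4238, and for all genes with a pooled summit 9235. These sets were not matched for window length, and the members' median counts the shared site for both lin-53 and rba-1.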

How the data were processed

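Peaks were called by the authors on alignments of each of the 4 ChIP-seq replicates, and on all 4 together, against a shared control on ce11, per the deposited README texts. For the aligner, the peak caller and the cutoff of the IDR step, the sources used here give no name or value. The deposited score of a peak is the authors' signal value, of unstated scale; it served to order peaks inside each list, with ties given the best rank. The deposited −log10 q-value is the authors' own. Lists on ce10 were not used. Gene models came from Ensembl release 115 (WBcel235). A replicate matched a pooled summit when its own summit lay within 200 bp. Proteins were translated from RefSeq coding sequences and aligned globally (BLOSUM62). The member genes and lists were chosen with earlier results of these data known, and all 9 members are named. Of the 10 ATPase genes listed for comparison, 2 had no annotated gene of that name and were not analysed here. No test between groups or genes was run, since the samples form 1 group, and genes are described beside all protein-coding genes. Dixon's outlier criterion was applied to 5 quantities over the replicates. Counting steps were tested on simulated lists. Alternatives covered window reach, list length, matching distance and left-out replicates. Analyses used Python 3.11.15, numpy 2.4.6, pandas 2.3.3 and Biopython 1.88.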

Additional observations from a re-analysis of the deposited data

Results flagged for a closer look

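Replicate 4 stood apart at the lin-53 site. Its rank there was 2024, while the other replicates gave 139 to 421, and as a share of the list it was 15.6% against 1.13% to 2.18%. In both cases the gap to the nearest replicate took up more of the range (0.850 and 0.927) than Dixon's 95% critical value for 4 samples allows. The number of member genes with a top peak was 1 in replicate 4 and 2 in the others. That count passes the criterion by construction, since a single whole number that differs from 3 tied ones always does, and it says nothing more. The 2 genes are lin-53 and rba-1 with their shared site, the 1 gene in replicate 4 is dcp-66, and without rba-1 each replicate has 1 gene. The quantities examined numbered 5, and both lin-53 values describe the same peak. About 1 group in 20 passes the criterion by chance when values are normally distributed. Whether ranks in lists of unequal length follow that rate was not tested. The cause was not tested.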

How the results depend on the processing

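All 9 members kept a pooled summit only with the whole pooled list and 2 kb upstream. With 500 bp and 1 kb upstream 6 and 8 did, against 54% and 59.1% of all genes, and in the upper part of the pooled list, cut at its middle, 7 did, against 44.6%. With the strongest 1628 pooled peaks it was 3 (lin-53, rba-1 and dcp-66), against 8.16% of all genes. The 2 members with an IDR summit became 1, lin-53, at 500 bp and at 1 kb upstream (2.88% and 3.43% of all genes), and 0 when a summit counted only for the nearest 5′ end, since nra-2 is nearer. The mean of 1.75 members with a top peak became 1 with a list cut to 407 top peaks and 0.750 with either shorter window, and ranged from 1.67 to 2 when a replicate was left out. Over the strongest summits of the 9 members, matches in replicates summed to 18, and to 7 with top peaks alone. Both sums count the shared site for lin-53 and again for rba-1. It enters with 4 matches for each gene in the 18, and with 3 for each in the 7. The count of 1 summit found in every replicate became 2 with matches up to 500 bp, and ranged from 1 to 2 when a replicate was left out, with 2 (the mep-1 site added) without replicate 2. Leaving out mitochondrial peaks, which was decided on once the data had been seen, left the mean at 1.75. Read depth is unknown, so a missing match in the shorter lists of replicates 2 and 4 does not show that a site was unbound.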
